A study of Mus musculus with 16 samples.

Results

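Infarction was compared with sham surgery in the ventricles of wild-type (WT) neonatal mice, in 4 WT MI and 4 WT sham samples chosen by the genotype and surgery on their labels, 8 of the 16 samples of the study. MI is myocardial infarction, made by ligation of a coronary artery, and the labels state that the whole ventricles were taken, with the tissue above and below the ligation. Each value is therefore an average over injured and uninjured muscle. The other 8 samples, 4 after infarction and 4 after sham, came from mice with a deletion of Chrna7, which encodes a nicotinic receptor for acetylcholine; they served to estimate the spread between replicates and to test where the WT response differed. All samples were RNA with poly(A) tails, read by sequencing and counted per gene. The labels do not give the strain, sex, litter, age at surgery or time to harvest, nor whether each sample is a separate animal, so every p-value measures only the spread between these samples.

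The newborn mouse heart can replace muscle lost to an infarct, an ability that is lost soon after birth. After an artery is tied, neutrophils and monocytes enter the dying muscle, macrophages clear the debris, and fibroblasts lay down a provisional matrix. Surviving cardiomyocytes next to the injury switch on genes of stress and of early development, while the epicardium and the vessels around the injury are reorganised. The comparison asks which of these programmes can be seen in the messenger RNA of whole ventricles.

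A gene was called changed when its adjusted p, from the edgeR quasi-likelihood test with Benjamini-Hochberg adjustment over the 13412 genes tested, was under 0.05. Infarction changed 302 genes, 2.25% of those tested. Of these, 177 rose (1.32% of those tested) and 125 fell (0.932%). The counts of each gene list below are to be set beside these shares, and a single call was not read as a change of its list. Changes over 2-fold were found in 54 of the genes that rose and 22 of those that fell. The replicates of the groups did not overlap in 271 of the 302 genes, and in 8.22% of all genes tested. The calls depended on the libraries: 79 of the 302 genes, 40 rising and 39 falling, were called again in all 8 fits that each left out 1 WT library. Dropping the first WT MI library left 86 called genes. Dropping WT sham replicate 3 left 134, replicate 4 left 162 and replicate 1 left 178. Rising genes made up 58.6% of the calls, but 47.4% when WT sham replicate 2 was dropped and 50% when replicate 3 was. Of the 96 called genes described below, 42 were called in all 8 of these fits. The other 54 lost the call in at least 1, and all but Bpgm and Plaur lost it without WT MI replicate 1. Losses are not repeated below for every gene. Ahsg, Bhlhe41 and Rgs4 lost the call in 7 fits, and Igfbp5 and Myocd in 6. Adgre1, Aplnr, Efemp1, Egln3, Igfbp6, Igfbp7, Igfbpl1, Il20rb, Ltbp2, Map3k6, Sirpa and Tlr2 lost it in 5.

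The promoters of the genes that changed are shown here beside counts of the short motifs they held, which were not tested. Promoters of 250 bases before to 50 bases after each start were taken from RefSeq (build GRCm38.p6) by symbol and searched on both strands for 9 motifs. GAGGAAGT, the site of PU.1, the factor that specifies myeloid cells, was found in the promoters of 13 of the 130 matched genes that rose (10%), in 1 of the 105 that fell (0.952%) and in 3.6% of the 10462 tested genes with a promoter. TGACG, the core of the cyclic AMP response element, was found in 15.4% of the genes that rose, 36.2% of those that fell and 34.4% of all tested. The full element TGACGTCA, which contains that core, was found in none of the genes that rose, 4.76% of those that fell and 3.46% of all. The CArG box, the site of serum response factor, was found in 2.31% of the genes that rose, 6.67% of those that fell and 1.6% of all. Of all 32851 promoters in the table, 3.2% held GAGGAAGT, 20.8% TGACG, 1.79% TGACGTCA and 1.63% a CArG box. The remaining 5 motifs stood at 8.46% (TGACTCA), 20.8% (ACGTG), 17.7% (CATTCC), 1.54% (AAAGGTCA) and 4.62% (CACGTG) of the genes that rose, at 7.62, 30.5, 21, 2.86 and 9.52% of those that fell and at 4.56, 28.8, 14.5, 1.19 and 11.6% of all tested, in the same order; CACGTG contains ACGTG. A match describes the letters only and was not tested as a site.

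The 4 promoters with GAGGAAGT printed first belong to genes that rose, described below under myeloid receptors, monocytes, complement and all white cells in turn. They are Pirb (chr7:3720333-3720632, minus strand), Spp1 (chr5:104434861-104435160, plus strand), C1qc (chr4:136892865-136893164, minus strand) and Cd53 (chr3:106790100-106790399, minus strand). The promoter of Nr4a3 (chr4:48045055-48045354, plus strand), which fell most of all called genes, held TGACG 4 times. The promoter of skeletal actin, Acta1 (chr8:123894726-123895025, minus strand), which rose, held a CArG box. All are in build GRCm38.p6, written 5′ to 3′, with the motif in capitals.
Pirb: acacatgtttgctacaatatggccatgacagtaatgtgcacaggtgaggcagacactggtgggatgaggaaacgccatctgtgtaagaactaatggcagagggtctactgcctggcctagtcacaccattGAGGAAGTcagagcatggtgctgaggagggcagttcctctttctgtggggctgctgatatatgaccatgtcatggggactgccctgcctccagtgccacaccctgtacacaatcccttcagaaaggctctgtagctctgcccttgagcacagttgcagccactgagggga
Spp1: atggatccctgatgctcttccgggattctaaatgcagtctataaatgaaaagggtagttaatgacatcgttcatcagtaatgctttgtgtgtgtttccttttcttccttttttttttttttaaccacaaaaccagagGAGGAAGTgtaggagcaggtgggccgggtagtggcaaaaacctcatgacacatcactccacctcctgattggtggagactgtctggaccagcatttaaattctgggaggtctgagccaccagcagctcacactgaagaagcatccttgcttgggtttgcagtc
C1qc: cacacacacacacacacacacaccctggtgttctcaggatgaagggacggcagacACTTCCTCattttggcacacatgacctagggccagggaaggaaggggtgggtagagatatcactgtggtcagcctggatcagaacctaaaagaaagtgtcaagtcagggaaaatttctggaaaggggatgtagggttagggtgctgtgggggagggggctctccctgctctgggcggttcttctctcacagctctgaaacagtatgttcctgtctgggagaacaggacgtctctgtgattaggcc
Cd53: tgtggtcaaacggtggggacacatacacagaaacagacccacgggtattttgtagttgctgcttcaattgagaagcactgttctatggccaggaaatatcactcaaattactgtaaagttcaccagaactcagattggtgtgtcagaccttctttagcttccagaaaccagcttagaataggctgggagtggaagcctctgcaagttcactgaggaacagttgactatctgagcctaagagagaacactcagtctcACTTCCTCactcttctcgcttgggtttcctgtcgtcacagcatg
Nr4a3: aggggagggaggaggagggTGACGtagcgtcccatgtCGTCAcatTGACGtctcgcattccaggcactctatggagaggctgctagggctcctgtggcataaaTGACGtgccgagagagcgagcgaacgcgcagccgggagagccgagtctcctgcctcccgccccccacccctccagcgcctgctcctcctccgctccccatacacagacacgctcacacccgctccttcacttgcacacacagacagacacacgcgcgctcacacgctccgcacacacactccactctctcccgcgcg
Acta1: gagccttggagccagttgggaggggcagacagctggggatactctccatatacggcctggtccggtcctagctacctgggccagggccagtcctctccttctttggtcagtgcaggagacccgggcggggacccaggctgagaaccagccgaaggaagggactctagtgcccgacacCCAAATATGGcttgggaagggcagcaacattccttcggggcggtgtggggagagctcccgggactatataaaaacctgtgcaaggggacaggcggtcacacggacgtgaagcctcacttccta

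Reads assigned to genes numbered 10871418 to 17223580 in WT MI and 10711442 to 13504923 in WT sham. Levels are given in CPM, the reads of a gene per 1000000 reads of the library after scaling, with no correction for gene length; 3 reads were worth 0.179 to 0.29 CPM. The 6 ventricular markers Myl2, Myh6, Myh7, Tnnt2, Actc1 and Irx4 summed to 65100 to 69700 CPM in WT MI and 69400 to 79000 CPM in WT sham. The 4 atrial markers Myl7, Myl4, Sln and Nppa summed to 1350 to 2180 CPM in WT MI and 709 to 3320 CPM in WT sham, so the atrial share varied more among sham libraries than between surgeries. WT sham replicate 1 had almost no Y-linked reads (1.73 CPM over 4 genes), against 152 to 188 CPM in the other 7 libraries. WT sham replicate 2 and WT MI replicate 2 stood apart from the other WT libraries on the fourth principal component of all 16 samples (18.6 and 19.2, the others at -3.3 or below); without both, 157 genes were called, 85 rising and 72 falling. Chrna7 itself had 0 to 2 reads in every WT library.

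**Figure D1:**
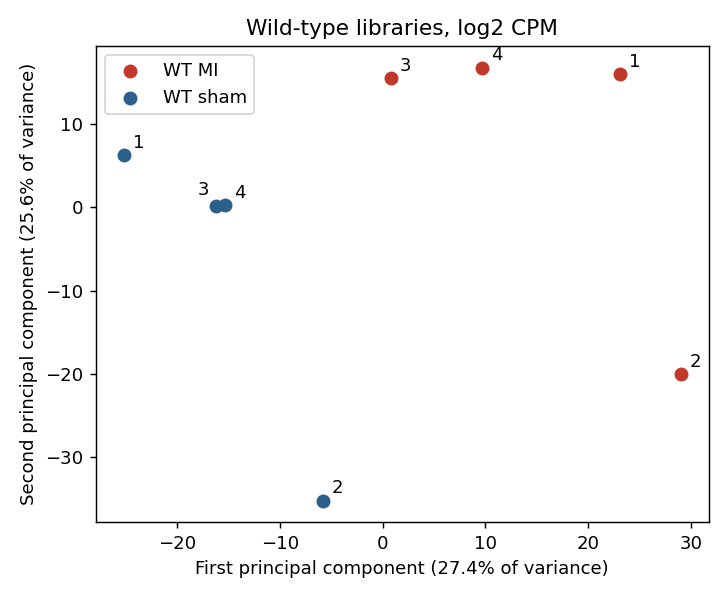
Principal components of log2 CPM of the 8 wild-type libraries, with the first component across and the second up, in arbitrary units; labels give the replicate. The WT MI libraries lie at 0.785 to 29.0 and the WT sham libraries at -25.2 to -5.81 on the first component, while replicate 2 of both groups lies low on the second.

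On the first principal component of the 8 WT libraries, with 27.4% of the variance, the groups did not overlap. WT MI replicate 2 (29.0) and replicate 1 (23.1) lay farthest from the sham libraries, and WT MI replicate 3 (0.785) nearest to them. The second component (25.6%) set replicate 2 of both groups at -20 in WT MI and -35.2 in WT sham, against 0.202 to 16.8 in the other 6 libraries. WT MI replicate 3 was also the lowest of its group in Spp1, Mmp12, Cilp, Ccn5 and Xirp2, described next. In whole ventricle, more cells of a type and more RNA per cell cannot be told apart.

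All 22 of the pan-leukocyte genes tested, out of 22 listed, had positive log2 changes, with a median of 0.8. Over all 13412 genes tested the median was -0.01, with 6403 positive and 7009 negative. Of the 22 pan-leukocyte genes 3 were called, namely Coro1a, Cd53 and Itgb2. The summed level of the list was 349, 292, 246 and 247 CPM in WT MI replicates 1 to 4, against 200, 195, 219 and 232 CPM in WT sham, so the groups did not overlap. Cd53, a membrane protein of all white cells, was at 5.02, 3.1, 3.2 and 3.78 CPM in WT MI and 1.82, 2.18, 1.64 and 1.45 CPM in WT sham (log2 1.07 ± 0.27, SE, n = 4 per group here and below; adjusted p = 0.0423). Itgb2, the beta 2 integrin with which leukocytes leave the blood, rose by a log2 of 1.10 ± 0.28 (adjusted p = 0.0425), to 5.58 to 10.7 CPM in WT MI against 2.42 to 4.64 CPM in WT sham. Coro1a, an actin regulator of leukocytes, rose 0.85 ± 0.20 (adjusted p = 0.0328). The calls of Cd53 and Coro1a each ended in 6 of the 8 leave-one-out fits, and that of Itgb2 in 7. The strand setting of the counting is not given in the sources used here. Where exons overlap on opposite strands, it is therefore not known whether reads of the shared part were separated or set aside. Reads set aside as ambiguous made up 1.65 to 1.86% in WT MI and 1.66 to 1.89% in WT sham. Coro1a overlaps Bola2 in this way, as below do Alas2 (Apex2), Igfbp7 (Polr2b), Plin4 (Hdgfl2), Mmp12 (Mmp1b), Junb (Prdx2) and Myl2 (Ccdc63). Tnni3 (Dnaaf3) and Igf2 (Gm49394), also below, overlap a gene on the same strand, which no strand setting would separate.

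Receptors by which myeloid cells sense complement, antibodies and microbial products formed another uniform group. All 26 tested of 32 listed were positive, 6 of them called, with a median log2 change of 1.04. Their summed level was 125, 110, 75.3 and 86.5 CPM in WT MI and 55.6 to 58.9 CPM in WT sham. Only genes that passed a filter on low counts over all 4 groups were tested. A gene low in sham could pass it through the infarcted libraries. Counts of positive genes and medians, here and in the lists below, can partly follow from that filter. C3ar1, the receptor of the complement fragment C3a, was at 4.28, 6.92, 3.29 and 4.03 CPM in WT MI, against 1.21, 1.64, 2.19 and 1.74 CPM in WT sham (log2 1.47 ± 0.24, adjusted p = 0.00277). Pirb, an inhibitory receptor that binds MHC class I, was at 7.32, 5.91, 3.39 and 3.26 CPM in WT MI and 1.3, 1.32, 1.55 and 0.773 CPM in WT sham (2.0 ± 0.36, adjusted p = 0.00629). Both genes were called in all 8 leave-one-out fits. Fcgr2b, the inhibitory receptor for IgG, rose 1.32 ± 0.28 (adjusted p = 0.0155), and Tlr2, a receptor for bacterial lipoproteins, rose 0.93 ± 0.21 (adjusted p = 0.0234). Cd14, which presents lipopolysaccharide to Toll-like receptors, was at 10.6 CPM in WT MI replicate 1 and 5.67 to 6.13 CPM in the other 3, all above the 3.29 to 4.13 CPM of WT sham (0.96 ± 0.20, adjusted p = 0.0138). Sirpa, which receives the signal that spares a cell from being eaten, rose least, by 0.41 ± 0.10 (adjusted p = 0.0349).

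Several macrophage genes rose. Of 22 tested genes of resident cardiac macrophages, out of 24 listed, 3 rose and none fell (median 0.39, 19 positive and 3 negative). Fcrls, a macrophage Fc receptor-like gene, was at 19.7, 21.6, 16 and 16.3 CPM in WT MI, against 10.6, 11.8, 9.32 and 8.22 CPM in WT sham (0.88 ± 0.16, adjusted p = 0.00519). F13a1, a transglutaminase of tissue macrophages, rose 0.74 ± 0.18 (adjusted p = 0.0307), and Adgre1, which encodes the macrophage surface protein F4/80, rose 0.75 ± 0.19 (adjusted p = 0.0425); in both the highest WT sham library lay above the lowest WT MI library. Ms4a7, a membrane protein of macrophages, rose 1.57 ± 0.29 (adjusted p = 0.00703), to 3.11 to 6.21 CPM in WT MI against 1.28 to 1.95 CPM in WT sham. Lyve1, shared by resident macrophages and lymphatic vessels, pointed the other way without passing (-0.85 ± 0.24, adjusted p = 0.0743), at 2.92 to 5.59 CPM in WT MI and 7.17 to 8.82 CPM in WT sham.

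Genes of recruited monocytes and of macrophages loaded with lipid included Spp1, the called gene with the largest rise in any list. Of 28 tested out of 29 listed, 5 rose and none fell (median 0.88, 20 positive and 8 negative). Spp1, which encodes osteopontin, was at 34.8, 21.8, 2.47 and 26 CPM in WT MI and 0.865, 0.234, 1.46 and 0.87 CPM in WT sham (4.66 ± 0.92, adjusted p = 0.0224). The third WT MI library stood far below the other 3, yet above every sham library. Mmp12, a macrophage elastase, was at 1.65, 2.75, 0.183 and 2.23 CPM in WT MI, against 0.0914 to 0.234 CPM in WT sham, so the same library overlapped the sham range (3.26 ± 0.61, adjusted p = 0.00752); the sham values are at or below 3 reads. Marco, a scavenger receptor, was at 6.25, 2.51, 0.915 and 1.2 CPM in WT MI and 0.156 to 0.29 CPM in WT sham, again at or below 3 reads (3.45 ± 0.86, adjusted p = 0.0467). Clec4n and Clec4d, which encode the fungal sensors dectin-2 and MCL, rose 1.32 ± 0.34 (adjusted p = 0.0423) and 2.5 ± 0.58 (adjusted p = 0.0268). The call of Mmp12 held in all 8 leave-one-out fits. That of Spp1 ended in 5, that of Marco in 6, that of Clec4d in 4 and that of Clec4n in all 8. Without WT MI replicate 1 the change of Marco was 2.68 and that of Clec4d 1.84.

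Neutrophil genes were uneven between libraries. The summed level of the list was 145, 66.8, 30 and 39.7 CPM in WT MI, against 29.3, 19.9, 26.1 and 32.7 CPM in WT sham, so WT MI replicate 3 overlapped the sham libraries. Of 12 genes tested, out of 18 listed, 1 rose and 10 were positive (median 1.9). These values cover only genes that passed the filter, which some low in sham could pass through the infarcted libraries. Retnlg, for example, averaged 0.465 CPM in WT sham and 2.33 CPM in WT MI. The count and the median are therefore no independent sign of a rise. Mmp9, the gelatinase of neutrophil granules, was at 7.32, 5.01, 1.65 and 2.23 CPM in WT MI and 1.21, 0.702, 0.914 and 1.45 CPM in WT sham (1.95 ± 0.46, adjusted p = 0.0296). Its call ended in 6 of the 8 leave-one-out fits. Csf3r, the receptor for the neutrophil growth factor G-CSF, was at 9.87 CPM in WT MI replicate 1, 2.2 to 3.7 CPM in the other 3 and 0.773 to 1.87 CPM in WT sham, and missed the threshold (1.86 ± 0.49, adjusted p = 0.0524). Retnlg, a resistin-like protein of neutrophils, was at 3.62, 3.76, 0.824 and 1.12 CPM in WT MI and 0.312 to 0.731 CPM in WT sham (2.35 ± 0.68, adjusted p = 0.0848).

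Of 15 complement genes tested, out of 19 listed, 4 rose and 14 were positive (median 0.61). The 3 chains of C1q, the molecule that opens the classical cascade and is made by macrophages, moved together: C1qa was at 50.5, 47.5, 38.1 and 31 CPM in WT MI and 23.8 to 26.3 CPM in WT sham (0.73 ± 0.14, adjusted p = 0.00703). C1qb rose 0.68 ± 0.15 (adjusted p = 0.021) and C1qc 0.64 ± 0.14 (adjusted p = 0.0183), each without overlap between the groups. The fourth gene was C3ar1, with a larger change. The calls of C1qa and C3ar1 held in all 8 leave-one-out fits, and those of C1qb and C1qc each ended in 4.

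Among cytokines and chemokines, 5 of 22 tested (36 listed) rose and none fell (median 0.46, 17 positive and 5 negative). Il1b, the leading inflammatory cytokine, was at 10.5, 2.27, 1.19 and 1.72 CPM in WT MI, against 0.519, 0.468, 0.639 and 0.773 CPM in WT sham (2.70 ± 0.60, adjusted p = 0.0244). Without WT MI replicate 1 the change was 1.54, and the call ended in 5 of the 8 leave-one-out fits. The chemokines Ccl6 and Ccl9, which attract monocytes through the receptor Ccr1, rose 2.44 ± 0.56 (adjusted p = 0.0315) and 1.34 ± 0.33 (adjusted p = 0.0349). Ccl6 was at 8.31, 7.58, 7.42 and 2.06 CPM in WT MI and 0.702 to 1.56 CPM in WT sham. Its call ended in 7 of the 8 leave-one-out fits, and that of Ccl9 in 5. Cxcl16, a membrane-bound chemokine and scavenger receptor, rose 0.59 ± 0.14 (adjusted p = 0.0296), though its exons overlap those of Zmynd15 on the opposite strand. Tgfb3, a growth factor of matrix formation, rose 0.50 ± 0.12 (adjusted p = 0.0302), a call that ended in 6 of the 8 leave-one-out fits. The other classic cytokines did not pass the filter on low counts. Tnf had 4 to 6 reads in WT MI and 5 to 7 in WT sham, and Il10 had 0 or 1 in every WT library. Il6 had 25 reads in WT MI replicate 1, 1 to 5 in the other WT MI libraries and 0 to 3 in WT sham.

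Other immune lists held no called gene. Of 8 MHC class II genes tested (9 listed) 7 were positive, with a median of 0.64 and a summed level of 45.8 to 80.5 CPM in WT MI and 30.2 to 34.3 CPM in WT sham, which did not overlap. Cd74, the chain that guides MHC class II to the endosome, was at 7.52 to 16.2 CPM in WT MI and 4.75 to 8.41 CPM in WT sham (0.87 ± 0.25, adjusted p = 0.0785). The interferon-stimulated genes had a median of 0.29, with 18 of 20 tested (21 listed) positive and none called. For T, B, natural killer and mast cells the median was -0.3 over 10 tested of 21 listed, and none passed.

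**Figure D2:**
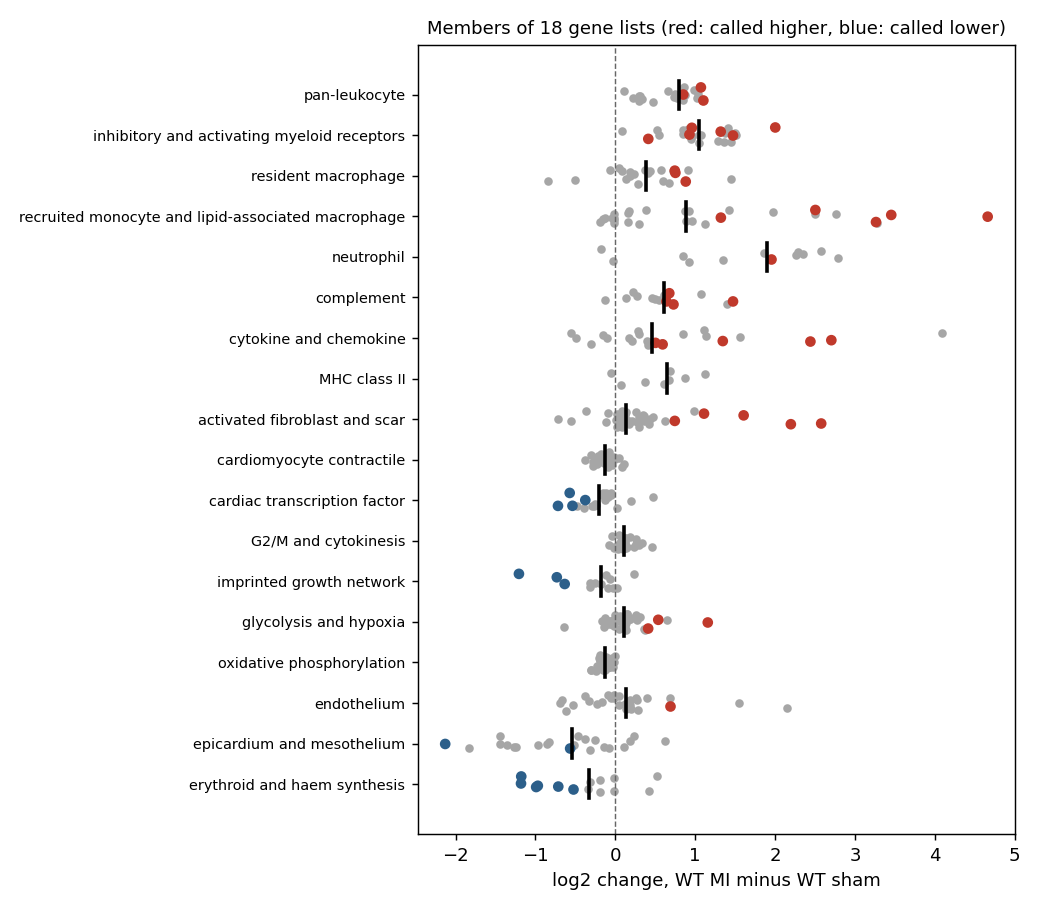
Log2 change, WT MI minus WT sham, of every tested gene in 18 of the gene lists (grey points), with called genes in colour and the median of each list as a black bar; the dashed line marks 0. The medians of the myeloid lists lie to the right of 0, at 0.8 for pan-leukocyte genes and 1.04 for myeloid receptors. Single genes of some of these lists are negative, 8 of 28 for recruited monocytes. The median of the epicardium and mesothelium list (-0.54) lies to the left.

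Few matrix genes were called, led by secreted fibroblast proteins. Of 41 genes of activated fibroblasts and scar, all tested, 5 rose and none fell (median 0.14). Most of the list leaned the same way, with 36 positive and 5 negative. Cthrc1, a marker of fibroblasts in healing infarcts, was at 36.5, 34.6, 25.1 and 35.6 CPM in WT MI, against 20.5, 21.3, 16.4 and 20.6 CPM in WT sham (0.74 ± 0.13, adjusted p = 0.00385). Cilp, a matrix protein that binds TGF-beta, was at 21, 12.9, 9.24 and 24.3 CPM in WT MI and 4.44 to 6.14 CPM in WT sham (1.61 ± 0.24, adjusted p = 0.00227). Ccn5, a member of the CCN family that restrains growth, was at 8.55, 4.54, 2.84 and 10.4 CPM in WT MI and 1.99, 1.17, 1.46 and 1.06 CPM in WT sham (2.2 ± 0.36, adjusted p = 0.0031). C1qtnf3, a secreted relative of C1q, was at 5.26, 3.16, 1.19 and 6.78 CPM in WT MI and 0.58 to 0.822 CPM in WT sham (2.58 ± 0.49, adjusted p = 0.00879). In Cilp, Ccn5 and C1qtnf3 alike, WT MI replicates 1 and 4 were highest and replicate 3 lowest. Ltbp2, a microfibril protein, followed the same order, at 28.4, 18.6, 13.5 and 37.4 CPM in WT MI and 7.95 to 14.3 CPM in WT sham, with overlap at replicate 3 (1.11 ± 0.26, adjusted p = 0.0328).

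Several matrix and fibroblast genes fell. Olfml2b, a secreted olfactomedin protein, was at 43.7, 52, 47.7 and 47 CPM in WT MI, against 87.3, 91, 83.8 and 90 CPM in WT sham (-0.89 ± 0.11, adjusted p = 0.000346). The replicates of each group lay close together, and the gene had the joint smallest adjusted p of the comparison, with Cirbp and Slc3a2. Efemp1, the matrix protein fibulin-3, fell by 1.57 ± 0.36 (adjusted p = 0.0284), to 2.15 to 3.34 CPM in WT MI against 6.28 to 13.1 CPM in WT sham. Of 25 genes of quiescent fibroblasts, all tested, 1 rose and 1 fell (median 0.09): Ly6a, a surface marker of progenitors and fibroblasts, rose 0.63 ± 0.14 (adjusted p = 0.0175), and Igfbp6, which binds IGF2, fell by 0.90 ± 0.22 (adjusted p = 0.0322). Of 29 proteases and inhibitors tested (31 listed) 2 rose, Mmp9 and Mmp12, and 1 fell. That was Plaur, the receptor that holds urokinase at the cell surface, at 4.81 to 7.98 CPM in WT MI and 9.77 to 15.1 CPM in WT sham (-0.85 ± 0.18, adjusted p = 0.0147). Serpina3n, an inhibitor of serine proteases induced in inflammation, rose 2.05 ± 0.43 (adjusted p = 0.0168), to 9.79 CPM in WT MI replicate 1 and 2.38 to 4.24 CPM in the other 3, against 0.605 to 1.55 CPM in WT sham; without WT MI replicate 1 the change was 1.43.

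**Figure D3:**
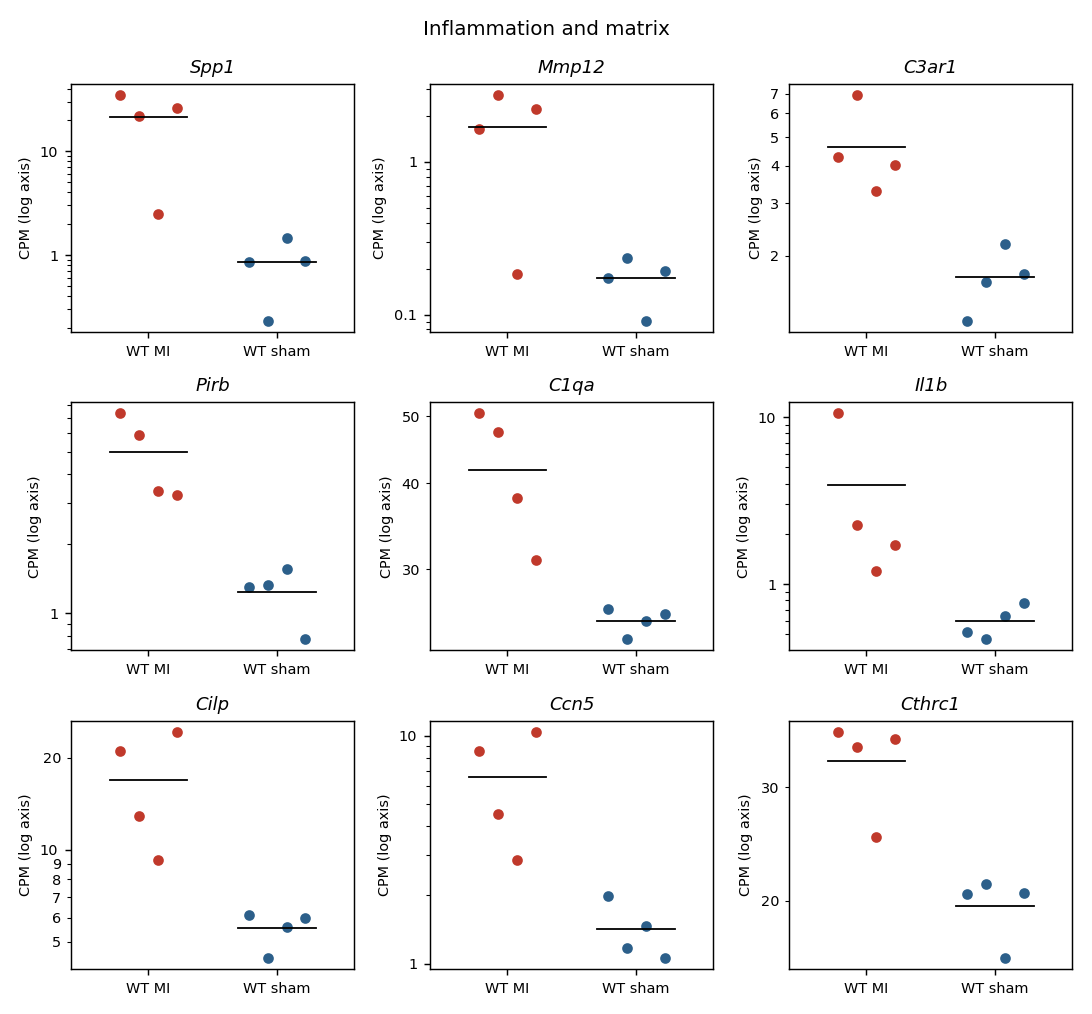
Level in each library of 9 genes of inflammation and matrix, in CPM on a log axis, with WT MI left (replicates 1 to 4 from left to right in each group) and WT sham right; bars are group means. The WT MI libraries of Spp1 span 2.47 to 34.8 CPM, with replicate 3 lowest, and all lie above the WT sham libraries.

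In heart muscle the stress genes that changed were few. Xirp2, an actin-binding protein of the intercalated disc, was at 251, 215, 184 and 380 CPM in WT MI, against 119, 120, 127 and 114 CPM in WT sham (1.10 ± 0.20, adjusted p = 0.00803). It was the only called gene among 29 tested genes of stress and junctions (31 listed, median 0.05). Acta1, the skeletal actin used again by stressed cardiomyocytes, was at 365, 335, 183 and 331 CPM in WT MI and 121, 210, 173 and 142 CPM in WT sham (0.91 ± 0.20, adjusted p = 0.0234). WT MI replicate 3 overlapped the sham range, and the call ended in 6 of the 8 leave-one-out fits. Nppa, the atrial natriuretic peptide, was at 1098, 1066, 1023 and 1796 CPM in WT MI and 1937, 1191, 1033 and 333.1 CPM in WT sham, with the sham libraries in the same order as for Myl7, Myl4 and Sln, genes of the atrial muscle. Bmp10, an atrial growth factor, was at 9.29, 3.04, 0.915 and 6.26 CPM in WT MI and 103, 63.3, 56.9 and 1.06 CPM in WT sham (-3.53 ± 1.28, adjusted p = 0.207). The part of atrial tissue in these values was not tested. Nppb, the ventricular natriuretic peptide, was at 214, 379, 247 and 337 CPM in WT MI and 186 to 229 CPM in WT sham (0.57 ± 0.27, adjusted p = 0.345).

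Of the troponin I genes, the skeletal forms fell. Tnni1, the slow skeletal troponin I that the fetal heart uses, was at 587.3, 754.5, 703.3 and 559.2 CPM in WT MI, against 858, 1164, 1174 and 1129 CPM in WT sham (-0.73 ± 0.12, adjusted p = 0.00372), and it was called in all 8 leave-one-out fits. Tnni2, the fast skeletal form, fell by 1.02 ± 0.24 (adjusted p = 0.0269), to 1.37 to 2.98 CPM in WT MI against 3.29 to 4.93 CPM in WT sham, a call that ended in 5 of the 8 leave-one-out fits. Tnni3, the adult cardiac form, overlapped between groups (-0.23 ± 0.11, adjusted p = 0.322). Of 24 contractile genes of cardiomyocytes, all tested, 20 were negative and none was called (median -0.13). Myl2, the ventricular light chain, was at 7747 to 8663 CPM in WT MI and 7758 to 12380 CPM in WT sham (-0.27 ± 0.12, adjusted p = 0.262). Trim55, a muscle ubiquitin ligase of the sarcomere, fell by 0.50 ± 0.08 (adjusted p = 0.00275), to 157 to 172 CPM in WT MI against 211 to 256 CPM in WT sham.

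Of 20 transcription factors of the heart tested (22 listed), 4 fell and none rose (median -0.21, 17 negative). Gata6, a zinc finger factor of heart development, was at 80.5, 106, 98 and 91.8 CPM in WT MI, against 129, 148, 126 and 144 CPM in WT sham (-0.54 ± 0.09, adjusted p = 0.0031). Its cofactor Zfpm2, known as FOG2, fell by 0.57 ± 0.11 (adjusted p = 0.00695). Tbx20, a T-box factor needed in adult cardiomyocytes, fell by 0.72 ± 0.16 (adjusted p = 0.0192) with a slight overlap, at 28.5 to 52.3 CPM in WT MI and 49 to 79 CPM in WT sham. Myocd, the myocardin coactivator of serum response factor, fell by 0.38 ± 0.10 (adjusted p = 0.0488). Hopx, a homeodomain-only protein of cardiomyocytes listed here under lung epithelium, fell by 0.51 ± 0.10 (adjusted p = 0.00782), to 244 to 282 CPM in WT MI against 340 to 431 CPM in WT sham. Calcium handling and channel genes had a median of -0.19, with 21 of 28 tested (30 listed) negative and none called.

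Several genes that answer to cyclic AMP, calcium and other fast signals fell after infarction. Nr4a3, an orphan nuclear receptor, was at 1.07, 1.07, 2.65 and 1.8 CPM in WT MI, against 15.4, 6.78, 12.5 and 10.2 CPM in WT sham (-2.80 ± 0.36, adjusted p = 0.000793). Every WT MI library lay below every sham library by a wide margin, and the gene was called in all 8 leave-one-out fits. Per1, a clock gene also induced by glucocorticoid and cyclic AMP, was at 44.7, 41.5, 56.5 and 68.9 CPM in WT MI and 124, 108, 98 and 130 CPM in WT sham (-1.12 ± 0.22, adjusted p = 0.015). Gem, a small GTPase that restrains calcium channels, was at 6.25, 4.89, 12.4 and 9.27 CPM in WT MI and 14.9 to 26.1 CPM in WT sham (-1.26 ± 0.23, adjusted p = 0.00629). Arid5a, which stabilises inflammatory transcripts, fell by 0.86 ± 0.14 (adjusted p = 0.0031). In Nr4a3 and Gem the third WT MI library was the highest of its group. The wider list did not move in 1 direction: of 30 immediate early and Nr4a genes tested (32 listed) 2 fell, 16 were positive and 14 negative (median 0.02). Junb, an AP-1 subunit, was at 20.2 to 38.9 CPM in WT MI and 15.7 to 21.4 CPM in WT sham (0.59 ± 0.17, adjusted p = 0.0695), and Sik1, a kinase induced by cyclic AMP, at 26 to 70.1 CPM in WT MI and 72.6 to 109 CPM in WT sham (-0.90 ± 0.24, adjusted p = 0.0612).

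Of 17 clock genes tested (18 listed), Per1 fell and Bhlhe41, a repressor of the clock, rose 0.61 ± 0.15 (adjusted p = 0.0319), while 13 were negative (median -0.13). Among 16 glucocorticoid response genes tested (17 listed), Per1 and the kinase gene Map3k6 (-0.47 ± 0.11, adjusted p = 0.0299) fell and none rose (median -0.11). Cirbp, an RNA-binding protein induced by mild cold, was at 69.1, 72, 73.3 and 68.7 CPM in WT MI, against 112, 115, 114 and 106 CPM in WT sham (-0.66 ± 0.08, adjusted p = 0.000346). The replicates of each group lay close together, with a wide gap between the groups. It was the only called gene among 23 chaperone, heat and cold genes, all tested (median 0). Slc3a2, the heavy chain of amino acid transporters, was at 54.5, 62, 63.8 and 60.2 CPM in WT MI, against 106, 96.8, 90.3 and 96.3 CPM in WT sham (-0.70 ± 0.09, adjusted p = 0.000346), and was the only called gene of 20 tested genes of the integrated stress response (22 listed, median -0.01).

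Several growth genes of the fetal programme fell. Dlk1, an imprinted inhibitor of differentiation, was at 10.9, 11.3, 11 and 13.5 CPM in WT MI, against 24.8, 32, 25.3 and 25.6 CPM in WT sham (-1.21 ± 0.17, adjusted p = 0.00114). Plagl1, an imprinted factor that regulates other imprinted genes, was at 30.4 to 47.8 CPM in WT MI and 60.8 to 68.3 CPM in WT sham (-0.73 ± 0.12, adjusted p = 0.00275). Igf2, the fetal insulin-like growth factor, was at 96.4, 87.6, 129 and 137 CPM in WT MI and 161 to 190 CPM in WT sham (-0.63 ± 0.13, adjusted p = 0.0164). These 3 were the called genes among 13 tested of 20 listed in the imprinted growth network (11 negative, median -0.18). In the IGF axis, 3 of 17 tested (19 listed) fell and 1 rose (median -0.25). Igfbp5, which binds IGF in the matrix, fell by 0.81 ± 0.20 (adjusted p = 0.0423), to 18.1 to 35.2 CPM in WT MI against 37.3 to 65.9 CPM in WT sham, and Igfbp7, an IGF binding protein of vessels, rose 0.35 ± 0.09 (adjusted p = 0.0344).

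Genes of cell division did not pass. All 29 G1/S and 27 G2/M genes were tested; 22 and 23 were positive, with medians of 0.12 and 0.11 and no call. The G2/M sum was 1490, 2240, 1340 and 1750 CPM in WT MI and 1440 to 1680 CPM in WT sham, so that WT MI replicate 2 was high and replicate 3 low. Aurka, a mitotic kinase, was at 31.4 to 55.3 CPM in WT MI and 26.2 to 30.3 CPM in WT sham, with no overlap (0.45 ± 0.17, adjusted p = 0.207), and the difference was 0.23 without WT MI replicate 2. E2f1, a factor of S phase entry, was at 28.5 to 37.4 CPM in WT MI and 23.6 to 29.8 CPM in WT sham (0.33 ± 0.10, adjusted p = 0.108). Of 29 growth factor and receptor genes linked to regeneration and tested (32 listed), 1 rose, the oncostatin M receptor Osmr, through which the cytokine acts on cardiomyocytes. Osmr was at 16.3, 12.1, 10.6 and 13.7 CPM in WT MI, against 7.25 to 8.3 CPM in WT sham (0.76 ± 0.16, adjusted p = 0.013). Fgf16, a growth factor of neonatal cardiomyocytes, was at 16.8 to 22.5 CPM in WT MI and 12.3 to 14.6 CPM in WT sham (0.54 ± 0.14, adjusted p = 0.0524).

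**Figure D4:**
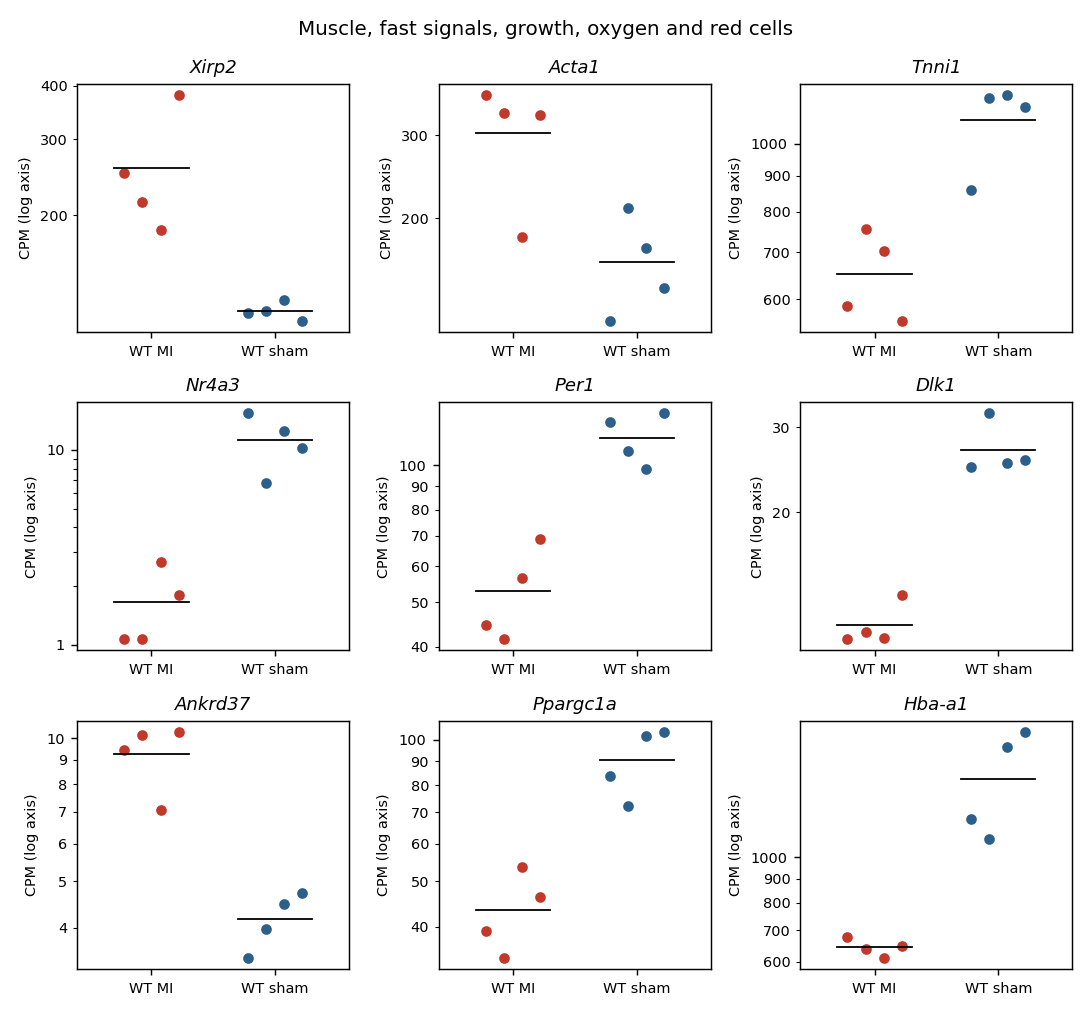
Level in each library of 9 genes of muscle, fast signals, growth, oxygen sensing and red cells, in CPM on a log axis, with WT MI left (replicates 1 to 4 from left to right in each group) and WT sham right; bars are group means. Nr4a3, Dlk1 and Tnni1 lie lower in every WT MI library than in any WT sham library, and Xirp2 lies higher.

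Few genes of oxygen sensing and metabolism were called. Of 38 tested glycolysis and hypoxia genes, 3 rose and none fell (median 0.1). Ankrd37, a target of hypoxia-inducible factor, was at 9.46, 10.2, 7.05 and 10.3 CPM in WT MI, against 3.46 to 4.74 CPM in WT sham (1.16 ± 0.20, adjusted p = 0.00519); its exons overlap those of Lrp2bp and Ufsp2 on the opposite strand. Egln3, a hydroxylase that marks hypoxia-inducible factor for breakdown, rose 0.54 ± 0.13 (adjusted p = 0.0288), and P4ha1, which hydroxylates collagen, rose 0.41 ± 0.09 (adjusted p = 0.0257). Depp1, a FOXO target also raised by progestin and fasting, was at 58.9, 62.7, 46.3 and 46.7 CPM in WT MI and 20.6 to 28.9 CPM in WT sham (1.08 ± 0.15, adjusted p = 0.000991). Ppargc1a, the coactivator that drives mitochondrial biogenesis, was at 39.2, 34.4, 53.5 and 46.3 CPM in WT MI, against 83.8, 72.3, 102 and 104 CPM in WT sham (-1.06 ± 0.20, adjusted p = 0.01). It was the only call among 17 regulators of mitochondrial genes (median -0.1). All 35 oxidative phosphorylation genes tested (39 listed) were negative, by 0.01 to 0.31, with a median of -0.13 and no call. Of 34 fatty acid and ketone genes, all tested, 27 were negative (median -0.1) and 1 fell, against 0.932% of all genes tested. That was the lipid droplet protein Plin4 (-0.48 ± 0.11, adjusted p = 0.0177). Pdk4, which diverts glucose from oxidation, was at 90 to 115 CPM in WT MI and 136 to 166 CPM in WT sham, apart but short of the threshold (-0.58 ± 0.15, adjusted p = 0.0527).

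Few genes of the heart surface and its vessels were called. Upk3b, a uroplakin of the mesothelium, was at 4.94, 5.31, 4.21 and 2.32 CPM in WT MI, against 28.9, 15, 17.3 and 13.2 CPM in WT sham (-2.13 ± 0.50, adjusted p = 0.0416); the groups were far apart, but the call ended in all 8 leave-one-out fits (-2.28 to -1.84). Igfbpl1, another gene of that list, fell by 0.57 ± 0.13 (adjusted p = 0.0282). Of 22 epicardium and mesothelium genes tested (23 listed) 18 were negative, with a median of -0.54 and a summed level of 206 to 238 CPM in WT MI and 278 to 357 CPM in WT sham. Gpm6a, a membrane glycoprotein of mesothelium, was at 1.12 to 2.39 CPM in WT MI and 3.84 to 7.09 CPM in WT sham (-1.36 ± 0.36, adjusted p = 0.0513). Among 31 endothelial genes, all tested, 1 rose, against 1.32% of all genes tested. That was Aplnr, the apelin receptor of vessel sprouts, at 123, 81.9, 98.4 and 112 CPM in WT MI and 59.4 to 74.2 CPM in WT sham (0.68 ± 0.16, adjusted p = 0.0328). Selp, the selectin on which leukocytes first roll, was at 4.69 CPM in WT MI replicate 1, 1.01 to 1.72 CPM in the other 3 and 0.639 to 0.779 CPM in WT sham (1.54 ± 0.45, adjusted p = 0.0814). Of 13 lymphatic genes 10 were negative (median -0.15) and none was called. Tmem100, a target of ALK1 signalling in endothelium, fell by 1.09 ± 0.16 (adjusted p = 0.00195), to 11.4 to 16.2 CPM in WT MI against 27.3 to 32.5 CPM in WT sham.

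Red cell transcripts were lower in WT MI than in WT sham. Hba-a1, an alpha globin, was at 678.2, 637.9, 612.5 and 648.7 CPM in WT MI, against 1202, 1090, 1711 and 1840 CPM in WT sham (-1.18 ± 0.18, adjusted p = 0.00282). Hbb-bs and Hbb-bt, the adult beta globins, fell by 0.97 ± 0.17 (adjusted p = 0.00519) and 0.99 ± 0.15 (adjusted p = 0.00248). Because the globin genes are near-identical copies, reads may be split among them unevenly. The unique red cell genes moved too: Alas2, the first enzyme of haem synthesis in red cells, was at 67.2 to 79.4 CPM in WT MI and 109 to 132 CPM in WT sham (-0.71 ± 0.14, adjusted p = 0.00905), and Bpgm, which tunes the oxygen affinity of haemoglobin, fell by 0.52 ± 0.11 (adjusted p = 0.0135). Of 14 tested genes of the list 6 fell (20 listed, median -0.33). In KO hearts Hba-a1, Hba-a2, Hbb-bs and Hbb-bt changed by 0.30, 0.44, 0.19 and 0.58, and only Hbb-bt was called (adjusted p = 0.0147). The haemoglobin genes together averaged 3790 CPM in WT sham, 1820 CPM in WT MI, 1320 CPM in KO MI and 1100 CPM in KO sham. The cause of the high level in WT sham was not tested.

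Lists of other tissues were checked as well. Lung epithelium markers summed to 287 to 456 CPM in WT MI and 383 to 506 CPM in WT sham, with Hopx the only call of 11 tested; the surfactant gene Sftpc was at 95.1, 1.01, 101 and 33.1 CPM in WT MI and 33, 0, 24.9 and 22.7 CPM in WT sham. Replicate 2 of both groups was at or near 0 for this lung marker. Skeletal muscle and brown fat genes summed to 2600 to 3270 CPM in WT MI and 2540 to 3470 CPM in WT sham. The brown fat marker Ucp1 was at 19.5, 0, 0.0915 and 1.29 CPM in WT MI and 32.3, 15.6, 7.49 and 0 CPM in WT sham, so it varied widely within both groups. Thymus and liver genes summed to 45.4 to 67.5 CPM in WT MI and 51.1 to 86.2 CPM in WT sham, and the liver protein Ahsg was called lower (-0.90 ± 0.22, adjusted p = 0.0382). The part of these tissues in the results was not tested.

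Some of the changes called in every leave-one-out fit lay outside the lists. Rasa4, a GTPase activator that switches off Ras in response to calcium, was at 17.8, 9.13, 9.61 and 9.53 CPM in WT MI, against 4.5, 3.27, 4.48 and 4.45 CPM in WT sham (1.46 ± 0.20, adjusted p = 0.000811). Ggta1, the galactosyltransferase that makes the alpha-Gal epitope, was at 20.6, 18.9, 20.1 and 21.5 CPM in WT MI and 11.6 to 12.6 CPM in WT sham (0.76 ± 0.10, adjusted p = 0.000793). Sema7a, a membrane-anchored semaphorin that acts through integrins, rose 0.63 ± 0.10 (adjusted p = 0.00227). Among genes that fell, Atcay, which encodes caytaxin, changed by -0.95 ± 0.13 (adjusted p = 0.000991) and Inka2, an inhibitor of the kinase PAK4, by -0.98 ± 0.14 (adjusted p = 0.00167). Aff2, Ctnnal1 and Plcd3 fell by 1.2 ± 0.19, 0.74 ± 0.12 and 0.56 ± 0.09. All 8 genes were called in every leave-one-out fit.

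The WT response differed from that of Chrna7 knockout (KO) hearts in 368 of the genes tested (2.74%), by the interaction of genotype and surgery in the same fit. Of the 302 genes called in WT, 81 were among them, 39 that rose in WT and 42 that fell, and for the other 221 a difference was not called. The KO sham libraries stood apart from all others on the first principal component of the 16 samples, at 27.9 to 31.6 against 0.973 or below in the other 12, so the levels of all 4 groups are given. Slc3a2, with the smallest interaction p of the genes called in both, averaged 60.1 ± 4.04 CPM in WT MI and 97.3 ± 6.39 CPM in WT sham, and 64.2 ± 7.29 CPM in KO MI and 44.3 ± 1.35 CPM in KO sham (SD, n = 4; interaction log2 -1.23 ± 0.12, adjusted p = 2.78e-05). Its level thus lay lowest in KO sham and highest in WT sham, with the infarcted groups between and close together. Tnni1 averaged 651 ± 93 CPM in WT MI and 1081 ± 150 CPM in WT sham, and 736 ± 107 CPM in KO MI and 412 ± 39.2 CPM in KO sham (-1.57 ± 0.18, adjusted p = 0.000122). Arid5a and Plaur had the same pattern, at 17.6 ± 2.11 and 6.7 ± 1.46 CPM in WT MI, 31.9 ± 3.87 and 12.2 ± 2.49 CPM in WT sham, 18.2 ± 4.47 and 8.99 ± 1.04 CPM in KO MI, and 9.91 ± 0.465 and 3.72 ± 0.731 CPM in KO sham. Sema7a mirrored it, with 67.3 ± 6.52 CPM in WT MI and 43.4 ± 2.67 CPM in WT sham, against 65.2 ± 9.2 CPM in KO MI and 87.7 ± 4.27 CPM in KO sham (1.06 ± 0.14, adjusted p = 0.000287).

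Hbb-bt, Slc20a1 (a phosphate transporter), Dusp7 (a phosphatase of ERK kinases), Olfml2b and Tmem151a completed the 10 genes called in both with the smallest interaction p. Dusp7 rose in WT, to 23.7 ± 1.57 CPM in WT MI against 17.3 ± 2.06 CPM in WT sham, and was at 21.5 ± 2.71 CPM in KO MI and 31.9 ± 1.82 CPM in KO sham. In each of the 10 the mean of KO MI lay closer to that of WT MI than the mean of KO sham lay to that of WT sham. The interaction compares these gaps, so gaps of unequal size follow from the choice of genes. By list, 17 of the 22 epicardium and mesothelium genes tested were called for the interaction, the largest share of any list. Of the myeloid and inflammatory lists, 2 of 28 recruited monocyte genes, 1 of 15 complement genes, 1 of 22 cytokine genes and none of the 22 pan-leukocyte, 26 myeloid receptor, 22 resident macrophage and 12 neutrophil genes were called, against 2.74% of all genes. The atrial markers Nppa, Myl7, Myl4 and Sln summed to 1350 to 2180 CPM in WT MI and 709 to 3320 CPM in WT sham, and to 648 to 2740 CPM in KO MI and 272 to 607 CPM in KO sham. Their part in the interaction calls was not tested, and Upk3b is a member of the atrial list too. Upk3b averaged 4.19 ± 1.33 CPM in WT MI and 18.6 ± 7.06 CPM in WT sham, and 7.16 ± 6.17 CPM in KO MI and 1.12 ± 0.513 CPM in KO sham (-4.79 ± 0.80, adjusted p = 0.00633). Among the injury genes, C3ar1 (interaction 0.43 ± 0.31), Pirb (0.33 ± 0.50), Spp1 (-1.11 ± 1.56), Il1b (0.66 ± 0.96) and Cthrc1 (-0.02 ± 0.18) were not called for a difference. Xirp2 and Cilp were called: Xirp2 averaged 258 ± 86.3 CPM in WT MI and 120 ± 5.44 CPM in WT sham, and 172 ± 41.7 CPM in KO MI and 185 ± 32.8 CPM in KO sham (1.21 ± 0.28, adjusted p = 0.0282).

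**Figure D5:**
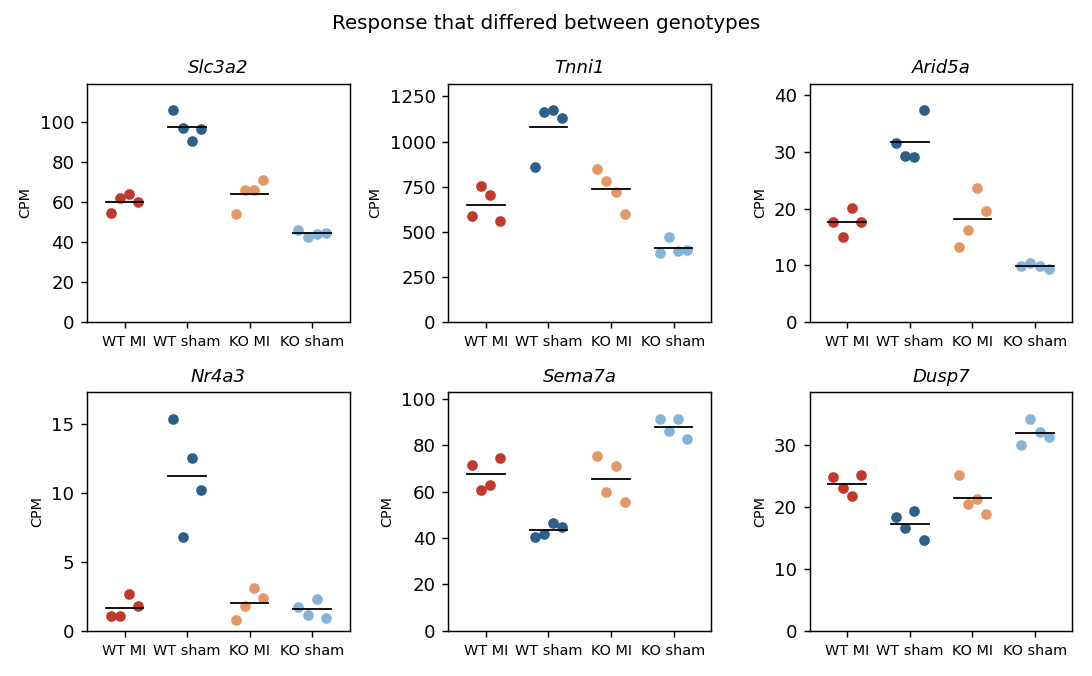
Level in each library of 6 genes whose response to infarction differed between genotypes, in CPM on a linear axis from 0, in the order WT MI, WT sham, KO MI and KO sham; bars are group means. In Slc3a2, Tnni1, Arid5a and Nr4a3 the WT sham libraries are highest, while in Sema7a and Dusp7 the KO sham libraries are highest, and the infarcted groups lie close together.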

How the data were processed

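Poly(A) RNA of whole ventricles was sequenced in 16 libraries, 4 in each of 4 groups of genotype and surgery. The deposited values are raw counts of reads per Ensembl gene; HISAT2 2.2.1, HTSeq 0.13.5, cutadapt 3.4 and genome build GRCm39 are named per the submitters' processing notes, and the strand setting is not given in the sources used here. The 5 lines of reads with no gene stayed out; reads in no feature made up 26 to 28.2% in WT libraries. Genes were tested with edgeR 4.0.16 (R 4.3.3), with TMM scaling, filterByExpr and the robust quasi-likelihood test, on all 16 samples with 1 mean per group (12 residual degrees of freedom) and Benjamini-Hochberg adjustment. The script was tested on simulated data. DESeq2 1.42.0 and limma 3.58.1 (voom with sample quality weights) were alternatives, beside other scalings, filters, a replicate block and each WT library left out. No pair of libraries within WT MI or within WT sham agreed within counting noise (chi-square per degree of freedom 6.29 to 21.7), so none was taken for a duplicate. Pairs across the groups were not examined. A symbol was found for 22362 of the 22468 genes counted. Genes named were the 20 largest changes each way among called genes with at least 2 CPM in a group and no overlap, the called and the 4 lowest-p members of each of 46 gene lists, 20 called in every leave-one-out fit, 10 called for the interaction, and a few set genes; some genes that this rule names are not reported here. Members and lists were chosen with earlier results of these data known, and no list is independent support for its direction. Levels are TMM-scaled CPM, errors of log2 changes are standard errors, and the 3-read level covers counting error only.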

Additional observations from a re-analysis of the deposited data

Results flagged for a closer look

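In 21 of the 246 groups of 4 libraries examined for the genes named, 1 library lay far from the other 3 by Dixon's test, which chance gives in about 1 group in 20. In WT MI, the library apart lay above the others for Cd14 (10.6 CPM, replicate 1), Csf2rb2 (4.52 CPM, replicate 1), Dlk1 (13.5 CPM, replicate 4), Il1b (10.5 CPM, replicate 1), Nppa (1800 CPM, replicate 4), Plin4 (103 CPM, replicate 3), Rasa4 (17.8 CPM, replicate 1) and Ucp1 (19.5 CPM, replicate 1). In WT MI, the library apart lay below the others for Ccl6 (2.06 CPM, replicate 4), E2f1 (28.5 CPM, replicate 3), Hba-a2 (83.3 CPM, replicate 1) and Igfbp6 (6.18 CPM, replicate 4). In WT sham, the library apart lay above the others for Dlk1 (32 CPM, replicate 2), Gpm6a (7.09 CPM, replicate 1) and Nppb (229 CPM, replicate 3). In WT sham, the library apart lay below the others for Bhlhe41 (10 CPM, replicate 3), Cthrc1 (16.4 CPM, replicate 3), Myocd (37.7 CPM, replicate 2), Rasa4 (3.27 CPM, replicate 2), Tmem151a (2.8 CPM, replicate 4) and Tnni1 (858 CPM, replicate 1).

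For 34 genes named here the WT response differed from the KO response by the interaction term of the edgeR fit. The log2 difference, WT response minus KO response, was positive for Aplnr (1.37), Cilp (1.43), Dusp7 (1.02), Ggta1 (0.62), Igfbp7 (0.46), Rasa4 (1.5), Sema7a (1.06) and Xirp2 (1.21). It was negative for Ahsg (-1.51), Alas2 (-1.11), Arid5a (-1.73), Bpgm (-0.60), Cyp2s1 (-2.48), Dlk1 (-1.42), Efemp1 (-2.43), Gem (-1.97), Gpm6a (-2.42), Hba-a1 (-1.48), Hba-a2 (-1.62), Hbb-bs (-1.16), Hbb-bt (-1.57), Igfbp6 (-1.89), Nr4a3 (-3.16), Olfml2b (-1.17), Per1 (-1.85), Plagl1 (-0.69), Plaur (-2.12), Sik1 (-2.00), Slc20a1 (-1.02), Slc3a2 (-1.23), Tmem100 (-1.19), Tmem151a (-3.86), Tnni1 (-1.57) and Upk3b (-4.79). The haemoglobin genes summed to 1630 to 2020 CPM in WT MI and 2840 to 4610 CPM in WT sham, and to 1070 to 1770 CPM in KO MI and 947 to 1350 CPM in KO sham.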

How the results depend on the processing

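The number of genes called, 302 (177 rising, 125 falling), was 511 (299 and 212) by DESeq2, 495 (282 and 213) by limma voom with sample quality weights, and 185 (107 and 78) with the 8 wild-type samples alone. Genes called for the interaction, 368, numbered 628 by DESeq2 and 1524 by limma voom with those weights. Called genes within the lists, 71, numbered 126 by DESeq2. Without WT sham replicate 2 and WT MI replicate 2, a choice made after seeing the data, 157 genes were called (85 and 72), 620 for the interaction, 41 within the lists and 57 of the 96 called genes named here. Leaving out each WT library in turn gave 86 to 385 calls, 44 to 211 rising and 42 to 174 falling, 205 to 817 for the interaction, 27 to 106 within the lists and 44 to 97 among the genes named here, those not called in the full set included. The cause was not tested. Deviations of same-numbered WT MI and WT sham libraries correlated at 0.0518, 0.475, -0.013 and -0.015 for replicates 1 to 4. The 0.475 of replicate 2 was the highest between any WT MI and any WT sham library, with the next at 0.198. The numbers thus did not pair the samples throughout, but replicate 2 of both groups deviated alike, and why was not tested. With the replicate block 297 genes were called (177 and 120), 350 for the interaction. The scalings and filters tried gave 246 to 312 calls; rising genes made up 65.4% of the calls under upper quartile scaling and 64.8% without haemoglobin and mitochondrially encoded genes. The direction of all 96 called genes was kept wherever they could be fitted, but these fits reuse the libraries that gave the calls. The call itself was lost by 30 of the 94 fitted with the 8 wild-type samples alone. It was lost by 19 of 96 by limma voom with weights, 10 of 96 with the replicate block and 0 of 96 by DESeq2. Of genes not called, Tnnt2 changed sign by limma voom with weights (-0.03) and ranged from -0.07 to 0.06 without single WT libraries (0 without WT sham replicate 2). Over the same fits Nppa ranged from -0.16 to 0.55 and Irx4 from -0.15 to 0.01. Depth limits the lowest genes: sham levels of Mmp12 and Marco lie at or below 3 reads.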

Other observations

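Several lists not described above held few or no called genes. Among 20 smooth muscle and pericyte genes, 16 were positive (median 0.11): Rgs4, a pericyte regulator of G protein signalling, rose 0.61 ± 0.16 (adjusted p = 0.0488), to 4.21 to 6.51 CPM in WT MI against 3.47 to 3.9 CPM in WT sham, and Myocd fell. Of 26 TGF-beta and BMP genes tested, Tgfb3 and Ltbp2 rose (median -0.04). Of 15 fetal and skeletal sarcomere isoforms Acta1 rose and Tnni1 and Tnni2 fell (median -0.13), and of 14 atrial genes, of which 13 were negative, Upk3b, which that list shares with the mesothelium, fell (median -0.61). No gene was called among 28 of Wnt and Hippo signalling (median -0.04), 17 of nerve, glia and cholinergic cells (-0.16), 17 of cell cycle inhibition and senescence (0.08) and 19 of antioxidant and metal defence (-0.03).

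Further genes changed outside the main groups. Csf2rb2, a receptor chain for interleukin 3, was at 4.52, 2.39, 2.75 and 2.4 CPM in WT MI, against 0.779 to 2.03 CPM in WT sham (1.35 ± 0.33, adjusted p = 0.0315). Evi2a, a membrane protein gene that overlaps Evi2, rose 1.52 ± 0.33 (adjusted p = 0.0167). Cyp2s1, a cytochrome P450, fell by 1.72 ± 0.34 (adjusted p = 0.0094), and Il20rb, a receptor chain for interleukin 20, by 1.06 ± 0.24 (adjusted p = 0.0252). Hba-a2, the second alpha globin, fell by 1.18 ± 0.22 (adjusted p = 0.0091).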
